A study of Mus musculus with 6 samples.

Results

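Amino acids cross cell membranes through carrier proteins, and the genes considered here encode the solute carrier families that hold most of them in mammals: SLC1, SLC3, SLC6, SLC7, SLC36, SLC38 and SLC43. Members were chosen by symbol alone, as every gene of these families with a plain number after the letter a, such as Slc7a5. By this rule 58 of the 18193 genes measured were members, represented on the array by 118 probe sets. Genes of these families without a probe set assigned to a single gene were not analysed here. The cells were primary mouse CD4 T cells from spleen and lymph nodes, all carrying the OT-II transgenic T cell receptor, which recognises a peptide of ovalbumin (OVA). One group of 3 arrays came from SAP-deficient cells, which lack the signalling adaptor encoded by Sh2d1a, and the other group of 3 arrays from wild-type (WT) cells. In both genotypes sorted naive cells (CD44lo, CD62L+, CD25-) were grown for 3.5 days with OVA peptide and mitomycin C-treated splenocytes depleted of T cells. To steer them toward a follicular helper T (Tfh)-like state, 50 ng/ml of IL-21 and 100 ng/ml of IL-6 were added. Blocking antibodies were also present, 20 µg/ml of anti-TGF-β, 10 µg/ml of anti-IL-4 and, with no dose given, anti-IL-12 and anti-IFN-γ. The cells are therefore a culture model with a single antigen specificity, and the splenocytes may leave RNA of their own. The labels give neither the age of the mice nor the kind of Sh2d1a allele.

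An activated T cell that starts to divide needs far more amino acids than a resting one. In T cells Slc7a5 (the light chain LAT1) pairs with Slc3a2 (the heavy chain CD98hc) to import leucine and other large neutral amino acids, and Slc1a5 (ASCT2) carries glutamine and other small neutral ones. Leucine and arginine inside the cell are sensed at the lysosome by the mTORC1 pathway, and shortage of amino acids is sensed by a separate stress pathway that works through the transcription factor ATF4.

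All values are log2 levels made with RMA, which carry no detection call and whose precision is limited by the number of arrays. A background level was therefore set at 5.49, the 95th percentile of 80 probe sets for olfactory and vomeronasal receptor genes, and a second line at 8.03, the 75th percentile of all probe sets. Probe sets differ in how well they bind, so the levels of different genes do not rank the amounts of their mRNA. In cultured bulk samples, fewer cells of a type and less RNA per cell cannot be told apart. Arrays were numbered 1 to 3 within a genotype in accession order. The labels state no pairing, and they leave unsaid whether each array had its own mouse or culture. The p-values therefore cover the spread among the arrays only, which may be technical in part. Levels of Xist, given below, differed widely between arrays of the same genotype. Sh2d1a was at 5.47, 4.10 and 4.92 in SAP-deficient replicates 1 to 3, against 9.50, 8.52 and 9.39 in WT replicates 1 to 3, which matched the labels (difference -4.31, adjusted p = 0.0501, limma). All 10 measured T cell markers were above background, as were 5 of 9 B cell markers and 5 of 6 MHC class II genes. The T cell marker list averaged 11.47 to 11.83 in SAP-deficient arrays and 11.51 to 11.83 in WT arrays.

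Of the 58 carrier genes, 32 (55.2%) lay above background and 14 (24.1%) above the upper line, against 64.0% and 37.1% of all genes. For 30 of the 32 the level on each array was above that array's own background, set in the same way. The remaining 26 lay at or under background. At the edge, Slc6a13 (5.64) and Slc7a13 (5.55) were just inside and Slc1a7 (5.48) and Slc7a7 (5.45) just outside. At the upper line Slc36a4 (8.59) was just inside and Slc43a3 (7.98) just outside.

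**Figure D1:**
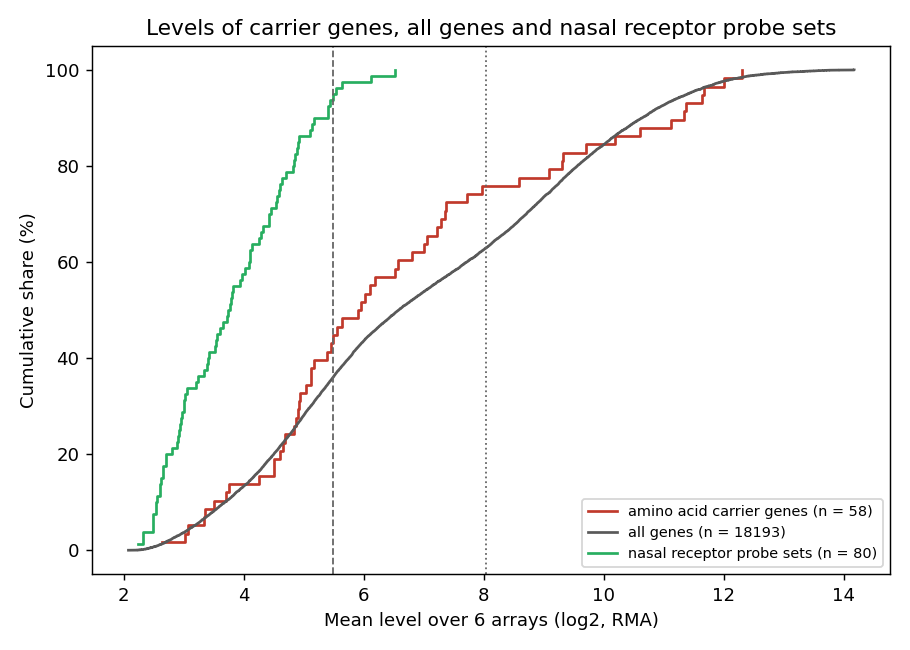
Cumulative share of genes or probe sets (vertical axis, %) by mean log2 level over the 6 arrays (horizontal axis), for the 58 carrier genes (red), all 18193 genes (grey) and the 80 nasal receptor probe sets that set the background (green). The dashed line is the background level, 5.49, and the dotted line the 75th percentile of probe sets, 8.03; 26 carrier genes lie at or left of the dashed line and 14 right of the dotted line.

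The light and heavy chains of the leucine carrier were among the 14 bright members. Slc7a5 read 11.78, 11.63 and 11.49 in SAP-deficient replicates 1 to 3, against 11.83, 11.65 and 11.47 in WT replicates 1 to 3. Its partner Slc3a2 read 12.12, 11.98 and 11.85 in SAP-deficient cells, against 12.02, 12.10 and 11.98 in WT cells. The groups overlapped for both genes, and the differences were -0.02 (95% interval -0.28 to 0.24) for Slc7a5 and -0.05 (-0.24 to 0.13) for Slc3a2. In both genotypes Slc7a5 was highest in replicate 1 and lowest in replicate 3. Slc7a6 (y+LAT2), a light chain that exchanges cationic for neutral amino acids, was at 10.12, 10.17 and 10.31 in SAP-deficient cells, against 10.19, 10.05 and 10.32 in WT cells. Of the 10 light chain genes measured, Slc7a11 and Slc7a13 were also above background and 6 were not. The dim ones included Slc7a8 (LAT2, mean level 3.06) and Slc7a9 (3.76). The other heavy chain gene, Slc3a1, which pairs with Slc7a9 in kidney and gut, was dim as well (4.50).

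Both ASCT genes, which encode exchangers of small neutral amino acids, were bright. Slc1a5 was at 11.77, 11.67 and 11.65 in SAP-deficient cells, against 11.79, 11.72 and 11.44 in WT cells, a difference of 0.05 (-0.18 to 0.28). Its relative Slc1a4 (ASCT1), which carries serine, alanine and cysteine, read 9.48, 9.44 and 9.08 in SAP-deficient cells and 9.29, 9.48 and 9.08 in WT cells. By these probe sets replicate 3 was the lowest array of both genotypes for both genes, and the groups overlapped. The dimmer probe set of Slc1a5 was instead highest in replicate 3, at 8.68 in SAP-deficient cells and 8.69 in WT cells. At its dimmest probe set Slc1a4 was also lowest in replicate 3, at 8.67 in SAP-deficient cells and 8.75 in WT cells. At its middle probe set replicate 3 was lowest in SAP-deficient cells (9.04) but highest in WT cells (9.44).

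The SLC38 family holds sodium-coupled carriers of glutamine, alanine and other neutral amino acids, and 7 of its 9 measured genes were above background, 4 of them bright. Slc38a2 (SNAT2) read 11.21, 11.59 and 11.22 in SAP-deficient cells, against 11.38, 11.53 and 11.31 in WT cells. Slc38a1 (SNAT1) read 11.26, 11.37 and 11.39 in SAP-deficient cells, against 11.24, 11.39 and 11.41 in WT cells. By these probe sets replicate 2 was the highest array of both genotypes for Slc38a2 and replicate 1 the lowest for Slc38a1. The dimmer Slc38a1 probe set was instead lowest in replicate 2, at 10.25 in SAP-deficient cells and 10.23 in WT cells. The middle Slc38a2 probe set was also highest in replicate 2, at 9.85 in SAP-deficient cells and 9.84 in WT cells. Its dimmest was lowest there, at 6.61 in SAP-deficient cells and 6.55 in WT cells. Slc38a10, a less studied member, was at 10.58, 10.54 and 10.81 in SAP-deficient cells and at 10.58, 10.54 and 10.61 in WT cells. Its difference, 0.07 (-0.16 to 0.29), lay in replicate 3, where the arrays differed by 0.20, against 0.00 in replicates 1 and 2. Slc38a6 was the fourth bright gene and is described with the wide-ranging carriers. Slc38a9, which senses arginine at the lysosome for mTORC1, and Slc38a7, which exports glutamine and asparagine from lysosomes, were of intermediate level, with means of 7.28 and 7.38. Slc38a4 (4.26) and Slc38a5 (3.34) were under background.

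Of the 5 genes grouped as cationic carriers, Slc7a1 and Slc7a3 were bright. By its brightest probe set Slc7a1 (CAT1), the widely expressed carrier of arginine and lysine, was among the steadiest genes of the families. It read 12.25, 12.31 and 12.31 in SAP-deficient cells, against 12.33, 12.27 and 12.38 in WT cells, so that all arrays lay within 0.13. The difference was -0.04 (-0.17 to 0.10). Its middle probe set (mean 11.63) ranged over 0.21, with a difference of 0.02. The dimmest (mean 6.35) ranged over 0.92, with a difference of 0.43, or 0.25, 0.11 and 0.92 for numbers 1 to 3. Slc7a3 (CAT3), a second arginine carrier, varied more than any other member. Slc7a2 (CAT2), the form known from activated macrophages, was under background (4.84), as was Slc7a14 (3.36). Slc7a4 was at 7.35 by 1 probe set, while its other probe sets averaged 5.27 and 3.29.

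Among the SLC6 genes, 7 of 18 were above background and 2 were bright. Slc6a6 (TauT), the taurine carrier, read 11.24, 11.04 and 11.12 in SAP-deficient cells, against 11.34, 11.14 and 10.86 in WT cells. Slc6a9 (GlyT1), a glycine carrier, was the other bright one. Slc6a8, which carries creatine, had a mean of 6.11, and Slc6a7, a proline carrier of neurons, one of 6.56. The second probe set of Slc6a8 averaged 5.20, under background. The 6 measured GABA and monoamine carriers ranged in mean level between 4.60 and 7.23. The brightest of them was Slc6a2, the noradrenaline carrier, whose 7.23 came from 1 probe set, with 3.45 to 4.74 for the other 3. For Slc1a3, a glutamate carrier of glia and the one EAAT gene of 5 above background, 1 probe set was at 6.19 and the rest were at 4.81 or lower. Which of the discordant probe sets reports the transcript was not tested.

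All 4 SLC36 and all 3 SLC43 genes were above background. Slc36a2 (6.02) and Slc36a3 (5.95) nonetheless lay under the brightest receptor probe set (6.52). In the other families Slc1a3, Slc6a8, Slc6a13, Slc7a13 and Slc38a3 (5.90), also counted above background, lay under it too. Some SLC36 carriers, such as that of Slc36a1, move small amino acids together with protons. Slc36a4 was the bright one of the 4 genes, at 8.37, 8.71 and 8.86 in SAP-deficient cells, against 8.83, 8.36 and 8.39 in WT cells. Its arrays did not follow the replicate number: the differences were -0.46, 0.35 and 0.46 for numbers 1 to 3. Slc36a1 (PAT1), a lysosomal and plasma membrane form, averaged 6.52. The carriers of large neutral amino acids Slc43a1 (LAT3) and Slc43a2 (LAT4) averaged 7.05 and 7.73.

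**Figure D2:**
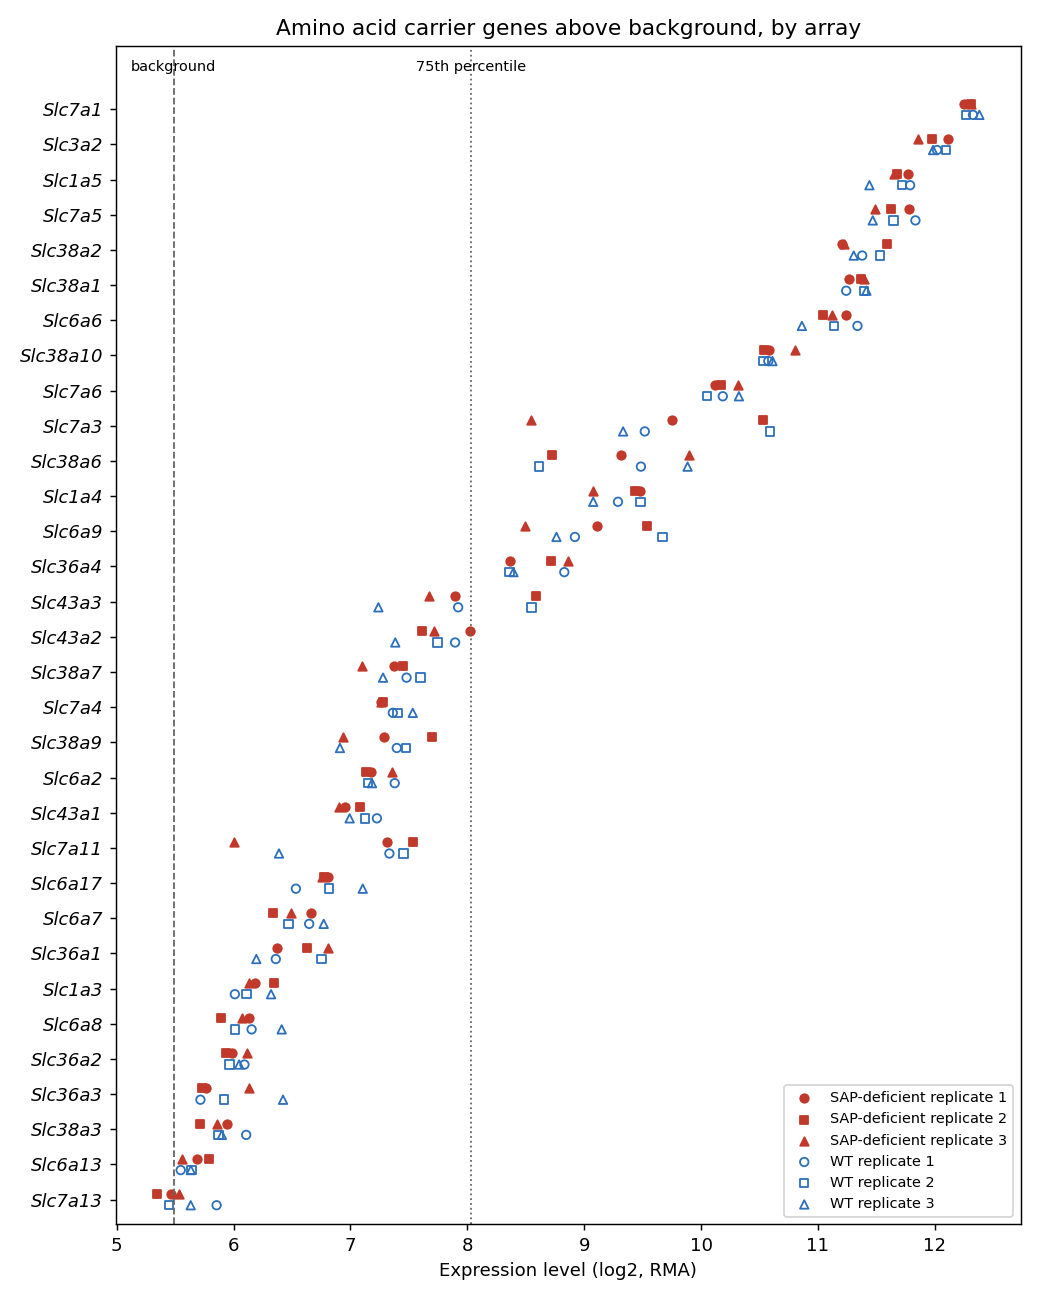
Log2 level (horizontal axis) of the 32 carrier genes above background on each array. Filled red symbols are SAP-deficient arrays and open blue symbols WT arrays, with circles, squares and triangles for replicates 1, 2 and 3; dashed and dotted lines mark 5.49 and 8.03. Slc7a1 spans 0.13 over the 6 arrays and Slc7a3 spans 2.04.

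Some carriers differed far more between replicate numbers than between genotypes. Over all probe sets, arrays of equal number correlated at 0.996 to 0.998 and arrays of the same genotype at 0.989 to 0.995 (Pearson, across probe sets of shared arrays). For 5 members (8.62%) the mean level of 1 number exceeded that of another by 1 log2 unit or more, against 3.13% of all genes; these were Slc7a3, Slc7a11, Slc38a6, Slc43a3 and, under background, Slc38a4. The share of a member's variance that lay between numbers had a median of 64.8%, beside 66.9% over all genes. With so few arrays, a good part of the variance falls between numbers even where arrays of equal number are unrelated.

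Slc7a3 was at 9.75, 10.53 and 8.55 in SAP-deficient replicates 1 to 3, against 9.52, 10.59 and 9.33 in WT replicates 1 to 3. Replicate 2 was highest and replicate 3 lowest in both genotypes, and the number means spanned 1.62, or 3.07-fold. Slc7a11 (xCT), the light chain that takes up cystine in exchange for glutamate, had the same order. It read 7.31, 7.53 and 6.005 in SAP-deficient cells, against 7.33, 7.46 and 6.39 in WT cells, a span of 2.46-fold between numbers. Its dimmer probe set was also highest in replicate 2, at 6.07 in SAP-deficient cells and 6.13 in WT cells, and lowest in replicate 3, at 4.54 in SAP-deficient cells and 4.66 in WT cells.

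Slc6a9 followed this order as well, with 9.11, 9.54 and 8.50 in SAP-deficient cells, against 8.92, 9.67 and 8.76 in WT cells. So did Slc43a3, a carrier of purine nucleobases, with 7.90, 8.59 and 7.67 in SAP-deficient cells, against 7.92, 8.55 and 7.24 in WT cells. Slc38a6 ran the opposite way, lowest in replicate 2 and highest in replicate 3. It read 9.32, 8.73 and 9.90 in SAP-deficient cells and 9.49, 8.61 and 9.88 in WT cells, and 98.6% of its variance lay between numbers. The 3 marker carriers were steadier, with spans between number means of 0.33 for Slc7a5, 0.15 for Slc3a2 and 0.23 for Slc1a5.

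**Figure D3:**
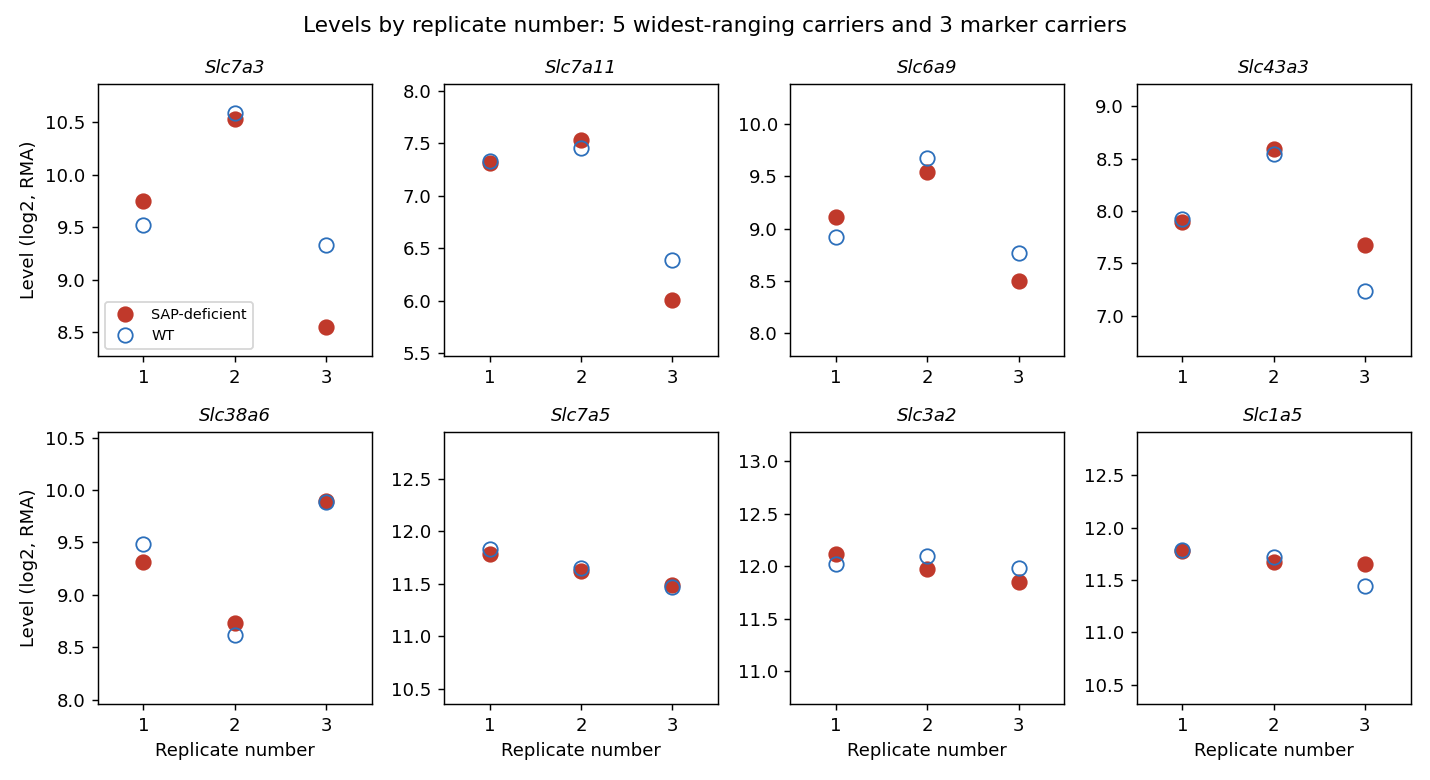
Log2 level (vertical axis, of equal span in every panel) by replicate number (horizontal axis) for the 5 widest-ranging carriers above background and the 3 marker carriers. Filled red circles are SAP-deficient arrays and open blue circles WT arrays; Slc7a3, Slc7a11, Slc6a9 and Slc43a3 are highest in replicate 2 and lowest in replicate 3 of both genotypes, and Slc38a6 is highest in replicate 3.

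Other features of the arrays also moved with the number. Xist, which marks cells with an inactive X chromosome, was at 12.50 in replicate 1 of both genotypes and at 8.21 or lower on the other arrays. The 4 measured sex-linked transcripts, Xist with the Y-linked Eif2s3y, Kdm5d and Uty, had their lowest mean in replicate 1. That mean was 5.41, 8.26 and 7.39 in SAP-deficient replicates 1 to 3, against 5.80, 8.21 and 7.30 in WT replicates 1 to 3. It pools transcripts of opposite sexes. Since Xist was highest in replicate 1, the Y-linked genes together were lower there than on the other arrays. Replicate 1 of both genotypes thus held more of the female and less of the male transcripts than replicates 2 and 3. For number 3 the SAP-deficient array differed from the WT array by -0.46 in the mean of MHC class II genes, by -0.38 in that of B cell markers and by 0.55 in that of proliferation genes. In numbers 1 and 2, MHC class II genes differed by -0.11 and -0.02 on average, B cell markers by -0.16 and -0.07 and proliferation genes by -0.14 and -0.07. MHC class II genes averaged 7.78 to 8.27 in SAP-deficient arrays and 8.07 to 8.38 in WT arrays, and proliferation genes 10.67 to 10.80 in SAP-deficient arrays and 10.25 to 10.82 in WT arrays. Over the genotypes, 6 of 6 MHC class II genes and 9 of 9 B cell markers lay below 0 and 9 of 9 proliferation genes above it, and the NK and CD8 T cell list differed by 0.07, 0.16 and 0.12 in numbers 1 to 3, with 0 genes of these lists called. The part of these features in the carrier levels was not tested.

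The promoters of 3 members are printed to show the sequence of Slc7a11 and Slc1a4, both known to respond to amino acid shortage, beside that of Slc38a6. The sequences are RefSeq's (GRCm38.p6), 250 bases before to 50 after the start of the gene, written along the gene's strand. Capitals mark matches, on either strand, to TGATGNAA, a form of the element that ATF4 binds together with C/EBP proteins. Slc7a11 lies at chr3:50443564-50443863 (minus strand), Slc1a4 at chr11:20332664-20332963 (minus strand) and Slc38a6 at chr12:73286598-73286897 (plus strand).
Slc7a11: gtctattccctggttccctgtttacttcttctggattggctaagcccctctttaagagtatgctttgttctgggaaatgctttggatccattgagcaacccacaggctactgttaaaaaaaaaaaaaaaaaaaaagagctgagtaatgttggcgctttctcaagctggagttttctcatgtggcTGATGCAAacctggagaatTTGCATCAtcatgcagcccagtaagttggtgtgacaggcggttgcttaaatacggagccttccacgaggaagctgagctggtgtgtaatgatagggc
Slc1a4: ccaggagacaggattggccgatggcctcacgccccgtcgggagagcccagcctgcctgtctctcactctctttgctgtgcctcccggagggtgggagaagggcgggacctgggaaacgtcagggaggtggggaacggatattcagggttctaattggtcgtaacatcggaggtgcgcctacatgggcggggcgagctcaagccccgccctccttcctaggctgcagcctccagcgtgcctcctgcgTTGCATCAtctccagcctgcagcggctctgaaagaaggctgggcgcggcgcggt
Slc38a6: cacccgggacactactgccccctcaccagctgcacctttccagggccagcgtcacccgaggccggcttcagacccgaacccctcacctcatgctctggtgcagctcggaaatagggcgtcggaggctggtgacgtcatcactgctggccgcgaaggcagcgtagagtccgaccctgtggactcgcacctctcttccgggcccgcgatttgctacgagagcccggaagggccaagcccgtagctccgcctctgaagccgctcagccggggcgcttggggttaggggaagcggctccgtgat
Slc7a11 held 2 matches, whose first bases lay 66 and 47 bases before the start, and Slc1a4 held 1, at 4 bases before it. In the window of Slc38a6 and the 3 windows of Slc6a9, which had Slc7a11's order of arrays, these letters were not found. Slc7a3 and Slc43a3 had no listed window, so the matches cannot be set against the order of the arrays. Of all 32851 promoter windows, 3.97% held a match, and of the 62 windows of member genes 5 did (8.06%); 17 members had no listed window. The E-box CACGTG, a site of MYC and its partner MAX, reads the same on both strands and shared bases with the other motif in 3 of all windows and 0 of the member windows. It was found in 7.15% of all windows and 9 (14.5%) of the member windows, and in none of those printed. Both motifs were chosen after the levels were seen.

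Between genotypes, no carrier gene passed the test. Limma called 0 of 58 members and 0 of 18193 genes (0%) at an adjusted p under 0.05. The unadjusted p was under 0.05 for 2 members (1 higher and 1 lower in SAP-deficient cells), against 1.31% of all genes, 0.566% higher and 0.748% lower. The median difference of members was -0.02, with 25 above and 33 below 0, and that of all genes was 0.01. By number, the members' medians were -0.01, -0.03 and -0.03. The difference had the same sign in all 3 numbers for 4 members higher and 10 lower, against 15.6% and 13.1% of all genes. With the replicate number as a block, limma called 0 members and 1 gene, Sh2d1a (0.0055%), and 2 members, both higher, had an unadjusted p under 0.05, against 6.1% of all genes, 3.49% higher and 2.61% lower.

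How large a difference these arrays leave room for varied between members. Among the 32 above background the differences ran between -0.20 (Slc7a3) and 0.17 (Slc36a1), and the smallest unadjusted p was 0.185 (limma), for Slc7a13. In the fit on genotype alone, the 95% interval lay within 0.5 log2 units on either side of 0 for 21 of the 32, and within 1 for 30. With the replicate block these counts were 31 and 32, and the interval beyond 0.5 was that of Slc7a3 (-0.55 to 0.14). Without the block, the exceptions at 1 were Slc7a3, with -1.36 to 0.95, and Slc7a11, at -0.11 with -1.09 to 0.87. The other wide-ranging genes were at -0.07 (-0.78 to 0.64) for Slc6a9, 0.15 (-0.65 to 0.95) for Slc43a3 and -0.01 (-0.86 to 0.84) for Slc38a6. Within number 3 alone, the differences were -0.78 for Slc7a3, -0.38 for Slc7a11, -0.27 for Slc6a9, 0.43 for Slc43a3 and 0.015 for Slc38a6. In the same order of genes they were -0.06, 0.08, -0.13, 0.04 and 0.11 for number 2. For number 1 they were 0.23, -0.02, 0.19, -0.02 and -0.17. The MHC class II, B cell and proliferation lists also differed most in number 3, and a link to the carriers was not tested.

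**Figure D4:**
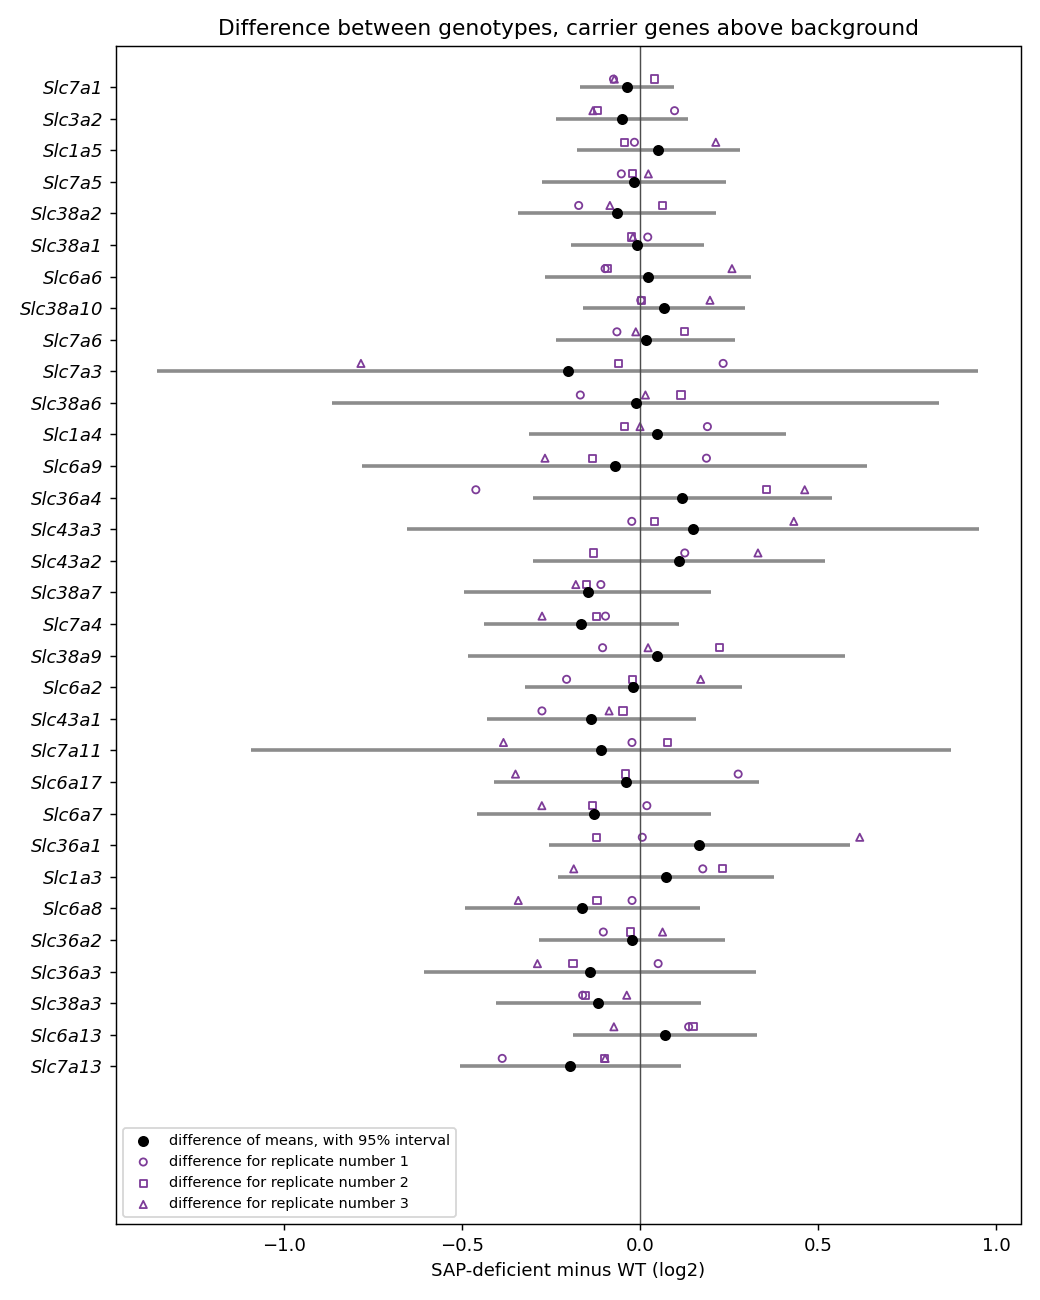
Difference between SAP-deficient and WT arrays (horizontal axis, log2, SAP-deficient minus WT) for the 32 carrier genes above background. Black points are differences of means with 95% intervals from limma as grey bars, and open purple circles, squares and triangles are the differences for replicate numbers 1, 2 and 3; every interval includes 0.

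The members with an unadjusted p under 0.05 in either fit were all dim. Slc1a1 (EAAT3), a glutamate and cysteine carrier best known from neurons, read 5.05, 4.99 and 5.19 in SAP-deficient cells, against 4.84, 4.73 and 4.88 in WT cells. Its groups did not overlap, but every value lay under background (difference 0.26 ± 0.10, SE; adjusted p = 1.00, limma; 0.787 with the replicate block). Its other probe sets were at -0.11 and 0.08. Slc6a14, a carrier of neutral and cationic amino acids known from epithelia, read 3.61, 3.64 and 3.54 in SAP-deficient cells, against 3.80, 3.78 and 3.82 in WT cells. This too was a separation far under background (-0.20 ± 0.08, SE; adjusted p = 1.00, limma; 0.834 with the replicate block), and its second probe set was at 0.08. Slc38a4 (SNAT4), known from liver, read 4.95, 3.82 and 4.73 in SAP-deficient cells, against 3.97, 3.44 and 4.64 in WT cells (0.49 ± 0.35, SE; adjusted p = 1.00, or 0.722 with the replicate block, limma). Its groups overlapped, and its second probe set was at -0.07. Slc1a1 and Slc6a14 had an unadjusted p under 0.05 in the fit on genotype, and Slc1a1 and Slc38a4 with the replicate block. Slc7a4 was the one gene above background whose groups did not overlap, at 7.27, 7.28 and 7.26 in SAP-deficient cells, against 7.36, 7.40 and 7.53 in WT cells. It was named after its values were seen. In all, the groups of 3 of 58 members did not overlap, 1 higher and 2 lower, against 5.32% of all genes, 2.38% higher and 2.94% lower.

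Genes that sense or use the carried amino acids were read from 6 further lists. None of their genes was called, and none had an unadjusted p under 0.05 in the fit on genotype. Of 30 measured mTORC1 sensing genes, all above background, 22 lay above 0 and 8 below, with a median of 0.07; of all genes above background 6840 lay above 0 and 4803 below, with a median of 0.02. With the replicate block 7 of them had an unadjusted p under 0.05 on the higher side (Castor2, Lamtor1, Lamtor4, Mtor, Rragd, Sesn1 and Wdr59) and 2 on the lower side (Flcn and Sesn2), with adjusted p-values of 0.722 or more (limma). Over all genes the shares were 3.49% and 2.61%. Wdr59, a part of the GATOR2 complex that relays leucine and arginine signals, was at 8.50, 9.01 and 8.92 in SAP-deficient cells, against 8.29, 8.69 and 8.68 in WT cells. Each SAP-deficient array was above the WT array of its number, by 0.21, 0.32 and 0.24, while the groups overlapped. Sesn1, of the sestrin family of leucine sensors and stress proteins, differed by 0.20, 0.22 and 0.36 and Sesn2 by -0.02, -0.16 and -0.49.

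The enzymes of glutamine and glutamate use were all above background, and 5 of the 12 measured lay above 0 and 7 below. By the block, Glud1 (glutamate dehydrogenase) and Aldh18a1 (the first step toward proline) had an unadjusted p under 0.05. Glud1 was at 12.02, 11.80 and 12.00 in SAP-deficient cells, against 12.14, 11.96 and 12.29 in WT cells, a difference of -0.19 (-0.42 to 0.04). Aldh18a1 was at -0.15 (-0.54 to 0.25). Of 7 genes of branched-chain use 3 lay above 0 and 4 below, and of 7 genes of glutathione synthesis also 3 and 4. Chac1, which degrades glutathione, was at -0.19 (-0.50 to 0.11) and had an unadjusted p under 0.05 by the block. Of 24 amino acid carriers in other families 15 lay above 0 and 9 below, and 17 were above background. Over all 24, dim ones included, the differences ran between -0.97 and 0.20, and neither end had an unadjusted p under 0.05 in either fit. Slc25a15, the mitochondrial ornithine carrier, was at 0.17 and Slc17a6, a vesicular glutamate carrier, at -0.16, both with an unadjusted p under 0.05 by the block.

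Of the 13 regulators of carrier genes, 6 lay above 0 and 7 below. Atf4 was at 12.80, 13.04 and 12.88 in SAP-deficient cells, against 12.92, 13.10 and 12.97 in WT cells (-0.09, interval -0.26 to 0.08). Myc, whose protein activates Slc7a5 and Slc1a5 in T cells, was at 12.50, 12.18 and 12.50 in SAP-deficient cells, against 12.37, 12.19 and 12.36 in WT cells (0.09, -0.14 to 0.32). Replicate 2 was the highest array for Atf4 and the lowest for Myc in both genotypes. Ddit3 (CHOP), a target of ATF4, was at -0.23 (-0.87 to 0.40). Max read 9.65, 9.91 and 10.01 in SAP-deficient cells, against 9.46, 10.00 and 7.88 in WT cells. WT replicate 3 stood apart, and the difference of 0.74 (-0.33 to 1.82) was 2.13 for number 3, against 0.20 and -0.10 for numbers 1 and 2. By the block, Atf4, Ddit3 and Max had an unadjusted p under 0.05, with adjusted p-values of 0.800, 0.722 and 0.814 (limma).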

How the data were processed

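RNA of 3 SAP-deficient and 3 WT samples was hybridised to Affymetrix whole-genome mouse arrays, with 500 ng of total RNA labelled per array. The deposited values are log2 levels per probe set, which the authors made with Affymetrix Expression Console and RMA, per the submitters' processing notes; tool versions and genome build: not given in the sources used here. This method equalises the arrays' distributions and compresses differences of dim probe sets.

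Here limma (3.58.1, R 4.3.3) was fitted to all 45037 probe sets that are not controls, with lmFit on genotype and eBayes with an intensity trend, two-sided. For each of 18193 genes, the probe set of highest mean among those assigned to that gene alone was used. P-values were adjusted over these genes (Benjamini-Hochberg), with calls at an adjusted p under 0.05. Symbols came from the platform annotation, updated through RefSeq. The fit was tested on simulated data with independent arrays and the spread left by the block fit. Those data held no shift shared by arrays of equal number, so they do not test the fit under such shifts. Deviations of arrays from their genotype means correlated at 0.52 to 0.73 for equal numbers. The numbers are in accession order, so the fit with the number as a block is an alternative. Others were eBayes settings, filters on dim probe sets, scaling, array weights, other probe sets and the removal of arrays.

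The members and lists were chosen with earlier results of these data known. Values by array are given for members above the 75th percentile, for those with an unadjusted p under 0.05 in either fit, for the 5 above background with the widest range, and for Slc7a5, Slc3a2 and Slc1a5. Listed pathway genes are named where the unadjusted p was under 0.05 in either fit, besides Myc and Atf4. The other marker lists (neutrophil, 0 of 4 genes above background; myeloid and dendritic, 6 of 10; NK and CD8 T cell, 4 of 5; erythroid and platelet, 2 of 4; sex-linked transcripts, 4 of 4) held 0 called genes.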

Additional observations from a re-analysis of the deposited data

How the results depend on the processing

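No carrier gene was called under any of the 20 settings of the fit, and the lowest adjusted p of the 19 carriers followed was 0.722 (limma, replicate block). The count of carriers above background ran between 25 and 35. The median change of carriers ran between -0.03 and -0.01, or between -0.04 and -0.01 with arrays left out. The number of carriers with an unadjusted p under 0.05, 2 as reported, was 0 without genes under the median or the 75th percentile. Both carriers lay under the median, so these filters removed them and do not test them. The number was 0 by the mean of all probe sets, 1 after a second quantile normalization, and between 0 and 3 with arrays left out. With the replicate block it was 2, with Slc38a4 in place of Slc6a14, and equal numbers are not a pairing stated by the labels. Sh2d1a was the 1 gene called with robust eBayes (-4.31, adjusted p = 0.0405), without _x_at and _s_at probe sets (-4.31, 0.0493) and with the replicate block (-4.31, 1.99e-07), all by limma. With arrays left out the genes called were 0 or 1 and Sh2d1a ran between -4.63 and -3.94 (adjusted p 0.00712 to 1.00); it was called without WT replicate 2 (0.0273) and without replicate 2 of both genotypes (0.00712). It was not among the genes kept by the 75th percentile filter.

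Small differences changed sign in 53 of 372 repeats, for 16 of the 19 carriers; Slc1a1, Slc38a4 and Slc6a14, all under background, kept theirs. With a second quantile normalization Slc7a6 was at -0.0058, and with array medians centred Slc38a1 at 0.0011. With array weights Slc38a1 was at 0.0026, Slc6a6 at -0.024, Slc38a6 at 0.11 and Slc43a3 at -0.032. With the mean of all probe sets Slc7a1 was at 0.14, Slc6a6 at -0.024, Slc38a6 at 0.0039 and Slc1a4 at -0.026. With the most variable probe set Slc7a1 was at 0.43, Slc1a5 at -0.020, Slc6a6 at -0.16 and Slc38a10 at -0.028. With arrays left out the differences ran as follows: Slc3a2 -0.13 to 0.013, Slc7a5 -0.11 to 0.075, Slc1a5 -0.054 to 0.12, Slc1a4 -0.054 to 0.17, Slc38a1 -0.062 to 0.032, Slc38a2 -0.19 to 0.0022, Slc38a6 -0.37 to 0.28, Slc38a10 -0.016 to 0.12, Slc7a3 -0.66 to 0.33, Slc7a6 -0.053 to 0.084, Slc7a11 -0.44 to 0.36, Slc6a6 -0.10 to 0.14, Slc6a9 -0.32 to 0.20, Slc36a4 -0.054 to 0.41 and Slc43a3 -0.18 to 0.47. The cause was not tested.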
